A study of Mus musculus with 22 samples.

Results

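The collagen genes of mouse spinal cord were taken as every protein-coding gene whose symbol is Col, a type number, the letter a and a chain number. The count table held 44 such genes among 21995 rows, and 40 of them reached at least 10 counts in at least 3 of the 22 libraries. These 40 comprised 11 fibrillar chains, 6 basement membrane chains of type IV and 23 chains of other types. The 23 others were 9 fibril-associated chains (FACIT), 5 type VI chains of beaded filaments, 3 transmembrane chains, 2 type VIII chains of hexagonal networks, 2 multiplexins (Col15a1 and Col18a1), the anchoring fibril chain Col7a1 and the unclassed Col26a1. Just inside the minimum were Col4a3, Col6a6 and Col9a1, each with 10 counts in 9 libraries. Just outside were Col28a1, which reached it in 1 library, and Col10a1, Col17a1 and Col6a5, which reached it in 0.

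Spinal cord RNA of C57BL/6 mice was sequenced in a pair of experiments. The aging experiment held 8 Young wild-type mice of 3 to 4 months and 8 Old wild-type mice of 18 to 24 months, all male, with libraries from a Roche KAPA RNA HyperPrep kit. The disease experiment held 3 G93a mice, which carry the SOD1-G93A transgene and were symptomatic at 5 to 6 months, and 3 WT_G93a_Control mice, their wild-type controls, with libraries from an Illumina TruSeq kit. The transgene is a human SOD1 mutant in many copies, driven by its own human promoter in all tissues, and each library came from a separate mouse. Since kit and experiment coincide, fold changes were set side by side but levels were not compared between experiments.

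Collagens are extracellular matrix proteins in which alpha chains wind around each other into a rope-like helix. Fibrillar types (I, II, III, V, XI, XXIV and XXVII) build the fibrils of connective tissue, type IV builds the sheet-like network of basement membranes around vessels and under the meninges, and FACIT types decorate fibrils. In healthy spinal cord, collagen is mostly found in the meninges and around vessels, and some chains are also transcribed by neurons and glia.

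Gene-assigned counts ran from 5078092 to 9358055 in Young, 5664869 to 9145600 in Old, 10693060 to 13219797 in WT_G93a_Control and 9675610 to 11872431 in G93a. Mouse Sod1 stood at 160 ± 6.6 CPM (counts scaled to a common library size; SD, n = 3) in the controls and 310.04 ± 22.03 in G93a, with no overlap; the human transgene is not in the mouse annotation, so this does not measure it separately. Some libraries stood apart in the summed level of 10 Schwann cell markers. The sum was 337 CPM in G93a library 1 against 130.1 and 155 in the other G93a libraries, and 157 in Old library 5 against 77.4 to 94.9 in the other Old libraries. G93a library 2 was the lowest of its group in 12 of the 13 collagens called higher there. The same share over all genes called higher was not computed, so the count is not read as particular to collagens. Calls that changed without these libraries are given with the results.

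The start regions of 4 genes are shown because Col4a6 and Col5a3 had the steepest rises in SOD1-G93A and the type XI pair fell together with age. Each is the 250 bases before the RefSeq start (GRCm38.p6), 5′ to 3′ on the strand of the gene, with capitals marking matches on either strand to any of 4 motifs. The motif known as the TATA-binding box was searched as TATAAA. For the box bound by NF-Y the letters were CCAAT, and for the box bound by Sp1 they were GGGCGG. The site bound by AP-1 factors was searched as TGANTCA, where N is any base. Col4a6 lies at chrX:141474077-141474326 (minus strand), Col5a3 at chr9:20815068-20815317 (minus), Col11a1 at chr3:114030290-114030539 (plus) and Col11a2 at chr17:34038888-34039137 (plus).
Col4a6: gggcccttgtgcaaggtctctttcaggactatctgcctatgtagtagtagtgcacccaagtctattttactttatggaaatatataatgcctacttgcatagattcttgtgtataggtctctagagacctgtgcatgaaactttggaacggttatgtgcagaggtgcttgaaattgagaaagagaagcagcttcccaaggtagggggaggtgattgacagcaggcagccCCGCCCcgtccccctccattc
Col5a3: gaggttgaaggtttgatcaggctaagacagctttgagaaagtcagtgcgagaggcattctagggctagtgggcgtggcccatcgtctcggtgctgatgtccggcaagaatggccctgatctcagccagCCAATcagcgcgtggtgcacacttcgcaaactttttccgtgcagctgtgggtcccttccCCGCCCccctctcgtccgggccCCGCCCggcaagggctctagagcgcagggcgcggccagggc
Col11a1: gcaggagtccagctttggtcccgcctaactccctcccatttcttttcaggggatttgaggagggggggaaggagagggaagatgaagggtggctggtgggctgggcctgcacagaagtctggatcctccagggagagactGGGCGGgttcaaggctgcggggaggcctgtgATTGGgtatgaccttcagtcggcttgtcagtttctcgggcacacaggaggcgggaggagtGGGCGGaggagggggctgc
Col11a2: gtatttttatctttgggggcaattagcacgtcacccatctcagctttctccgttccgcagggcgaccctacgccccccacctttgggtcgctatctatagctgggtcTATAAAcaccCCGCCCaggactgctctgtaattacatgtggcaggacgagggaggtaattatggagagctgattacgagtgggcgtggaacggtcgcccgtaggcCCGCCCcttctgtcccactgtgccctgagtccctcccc

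Col4a6 held 1 Sp1 box, Col5a3 an NF-Y box and 2 Sp1 boxes, Col11a1 an NF-Y box and 2 Sp1 boxes, and Col11a2 a TATA box and 2 Sp1 boxes. RefSeq windows were matched for 31 of the 40 members, as 34 windows. An Sp1 box was found in 61.8% of these and in 32.7% of all 32851 windows, an NF-Y box in 35.3% and 33.8%, a TATA box in 8.82% and 12.4%, and an AP-1 site in 2.94% and 6.75%. The median GC content was 60% over the members' windows and 52.4% over all. A match is a run of letters and no evidence of binding.

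Levels of different genes were compared per length, as FPKM (fragments scaled to gene length and library size), within a group. In Young, Col11a2 led at 12.3 ± 1.8 FPKM (SD, n = 8), followed by Col16a1 at 11.7 ± 3.5 and Col11a1 at 11.5 ± 1.4, and the ranges of these neighbours overlapped. Col11a1 and Col11a2 encode chains of type XI collagen, which sets fibril diameter in cartilage, and Col16a1 encodes a FACIT chain of many connective tissues. The ubiquitous type IV chains came next, Col4a2 at 8.79 ± 1.2 and Col4a1 at 8.51 ± 0.75 FPKM, again with overlapping ranges. The cartilage collagen gene Col2a1 and the dermal and vascular Col3a1 were low, at 1.02 ± 0.39 and 1.21 ± 0.47 FPKM in Young.

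**Figure D1:**
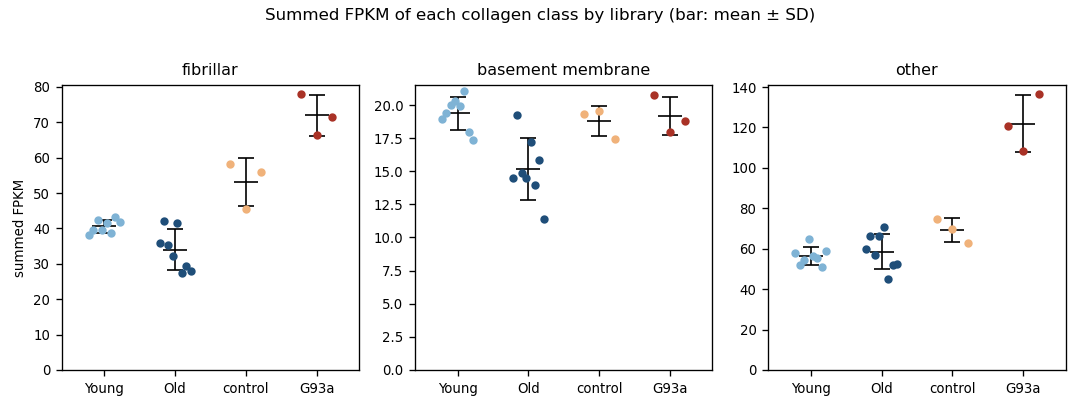
Summed FPKM of the 11 fibrillar, 6 basement membrane and 23 other collagen genes in each library (points) with the group mean ± SD (bars). The fibrillar sum is higher in all 3 G93a libraries (66.4 to 78.0) than in all 3 controls (45.55 to 58.2). The sum of the other class is too (108 to 136 against 63.0 to 74.9), and the basement membrane sums of those groups overlap.

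Summed over all 40 genes, collagen FPKM was 116 ± 4.3 in Young, 108 ± 16 in Old, 141 ± 9.8 in WT_G93a_Control and 213 ± 18 in G93a. The Young and Old sums overlapped (111 to 125 and 86.3 to 130), while every G93a library (193 to 227) lay above every control (135 to 152). Basement membrane chains made up 16.7% of collagen FPKM in Young and 14.1% in Old, and 13.3% in controls and 9.03% in G93a. In the SOD1-G93A cord the basement membrane sum was 19.2 ± 1.4 against 18.8 ± 1.2 FPKM in controls. The total was larger and the basement membrane sum overlapped that of the controls. These sums are a description and were not tested.

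The first comparison asked which collagen genes differ between old and young cord. Of the 40 members, 34 passed the filter on low counts, and 11 of these were called at an adjusted p under 0.05 by edgeR's quasi-likelihood test with Benjamini-Hochberg adjustment over 13647 genes. Old cord was higher for Col5a1, Col5a3, Col6a3, Col12a1 and Col22a1, which is 5 of 34 where 13.5% of all genes tested were called higher. It was lower for Col11a1, Col11a2, Col4a1, Col4a2, Col25a1 and Col26a1, which is 6 of 34 where 12.9% were called lower. Both shares are near the background, so these counts are not a result about collagens. None of the 34 passed a log2 fold change of 1 in either direction, a step that 2.18% of genes took upward and 0.044% downward. In bulk tissue, fewer cells of a type and less RNA per cell cannot be told apart.

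Type V collagen, a minor fibrillar collagen that nucleates fibrils, accounted for the fibrillar rises. Col5a3 ran from 8.89 through a median of 10.9 to 12.03 CPM in Young and from 12.5 through 17.4 to 22.9 in Old. Every Old mouse lay above every Young mouse, with a log2 fold change of 0.78 (SE 0.11, adjusted p = 9.34e-06, edgeR). Col5a1, the chain that takes part in most type V molecules, ran from 5.43 through 6.54 to 8.69 CPM in Young and from 5.77 through 11.6 to 14.1 in Old. Its groups overlapped and its log2 fold change was 0.67 (SE 0.16, adjusted p = 0.00329, edgeR). The third type V chain, Col5a2, did not pass the test (log2 fold change -0.17, SE 0.10, adjusted p = 0.242, edgeR).

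Type XI collagen chains fell together. Col11a1 ran from 47.4 through 51.7 to 62.3 CPM in Young and from 24.3 through 35.4 to 40.6 in Old, without overlap, and its log2 fold change was -0.63 (SE 0.09, adjusted p = 2.3e-05, edgeR). Col11a2 ran from 52.4 through 61.5 to 77.4 CPM in Young and from 30.5 through 46.4 to 54.9 in Old, where only the edges of the groups overlapped. It changed by a log2 fold change of -0.47 (SE 0.09, adjusted p = 0.000516, edgeR). The major fibrillar genes of type I did not pass the test: Col1a1 was at a median of 7.24 CPM in Young and 7.27 in Old (log2 fold change -0.00, SE 0.15), and Col1a2 at 34.3 and 28.7 (log2 fold change -0.11, SE 0.08, adjusted p = 0.35, edgeR). Col24a1, a fibrillar chain of developing bone and nervous tissue, missed the threshold at a log2 fold change of -0.56 (SE 0.21, adjusted p = 0.0543, edgeR) and passed it with DESeq2.

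Among basement membrane genes, the pair that forms the ubiquitous type IV network fell. Col4a1 ran from 35.4 through 38.5 to 47.4 CPM in Young and from 25.8 through 29.3 to 38.7 in Old. Col4a2 ran from 47.4 through 53.1 to 58.9 CPM in Young and from 35.0 through 40.7 to 48.7 in Old. The groups overlapped in both genes, for Col4a1 with the highest Old mouse just above the Young median and for Col4a2 only at the edges. The log2 fold changes were -0.39 (SE 0.08, adjusted p = 0.000667) and -0.40 (SE 0.06, adjusted p = 6.16e-05, edgeR). Without Old library 5 they were -0.45 and -0.45. Col4a5 and Col4a6, chains of the minor type IV network, did not pass the test, at log2 fold changes of 0.11 (SE 0.14) and 0.65 (SE 0.28, adjusted p = 0.0872, edgeR).

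The other classes gave 3 rises and 2 falls. Col12a1, a FACIT chain on the surface of fibrils under load, ran from 18.3 through 18.6 to 21.5 CPM in Young and from 16.3 through 25.8 to 37.7 in Old (log2 fold change 0.42, SE 0.12, adjusted p = 0.0131, edgeR), and the wide Old range enclosed the Young one. Col22a1, a FACIT chain of tissue junctions, had the steepest fitted rise of the 34, a log2 fold change of 0.83 (SE 0.22, adjusted p = 0.00606, edgeR), from medians of 2.17 to 3.51 CPM. Col6a3, the long chain of type VI beaded filaments, ran from 3.73 through 5.79 to 8.37 CPM in Young and from 6.99 through 8.61 to 9.66 in Old (log2 fold change 0.53, SE 0.13, adjusted p = 0.0051, edgeR). Its partners Col6a1 and Col6a2 did not pass the test (log2 fold changes -0.24 and 0.14), but Col6a1 did without Old library 5 (-0.32, adjusted p = 0.0285, edgeR). Col26a1 fell (log2 fold change -0.60, SE 0.19, adjusted p = 0.0202, edgeR). Col25a1, a transmembrane collagen made by neurons, was at -0.18 (SE 0.07, adjusted p = 0.0469, edgeR), a call that was lost in 10 of the 16 fits that left out 1 library. Col13a1, a transmembrane collagen of muscle and nerve contacts, was too low to be tested, with medians of 0.592 CPM in Young and 1.72 in Old; without the filter its log2 fold change was 1.11 (adjusted p = 0.00959, edgeR).

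The abundant or later-rising members that did not pass the aging test overlapped between the ages. Col16a1 ran from 25.7 through 34.6 to 40.6 CPM in Young and from 27.6 through 37.0 to 44.2 in Old. Col9a3 ran from 13.8 through 15.03 to 18.7 and from 8.95 through 17.1 to 20.04, and Col23a1, a transmembrane chain, from 31.0 through 37.8 to 40.5 and from 26.1 through 33.8 to 37.4. The log2 fold changes of these genes were 0.14, 0.02 and -0.17. Col1a2 ran from 29.5 through 34.3 to 37.8 CPM in Young and from 25.9 through 28.7 to 39.4 in Old. Col4a5 ran from 5.97 through 8.70 to 10.4 and from 6.17 through 8.72 to 13.1, and Col4a6 from 0.797 through 1.82 to 2.03 and from 0.771 through 2.77 to 4.69. For Col4a6 the upper Old mice lay above all Young mice while the lowest Old mouse lay below them. Col19a1, a FACIT chain, ran from 4.10 through 5.81 to 7.54 CPM in Young and from 2.62 through 4.35 to 7.16 in Old.

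By class, the median log2 fold change was -0.17 over 11 fibrillar genes, -0.14 over the 4 basement membrane genes tested and -0.17 over the 19 others tested, against -0.0027 over all genes. The fibrillar median stayed between -0.18 and -0.11 in the other fits of all libraries, but the medians of the basement membrane and other classes moved more. With DESeq2 they were -0.019 for basement membrane and 0.0077 for other genes, without the filter -0.025 and 0.00999, in 1 fit of all 22 libraries -0.022 and 0.016, and with at least 10 counts in every library -0.39 and 0.024.

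The second comparison asked the same of SOD1-G93A cord against its controls. All 40 members passed the filter and 16 were called among 14386 genes tested: 13 were higher, where 18.4% of all genes were, and 3 were lower, where 15.5% were. Of the 13, 10 had a log2 fold change above 1, where 8.5% of genes did, and of the 3 lower ones only Col19a1 was below -1, where 1.2% of genes were. With 3 mice a group, an exact permutation test of 1 gene could not go below p = 0.1, so calls rest on the spread that edgeR pools over genes.

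**Figure D2:**
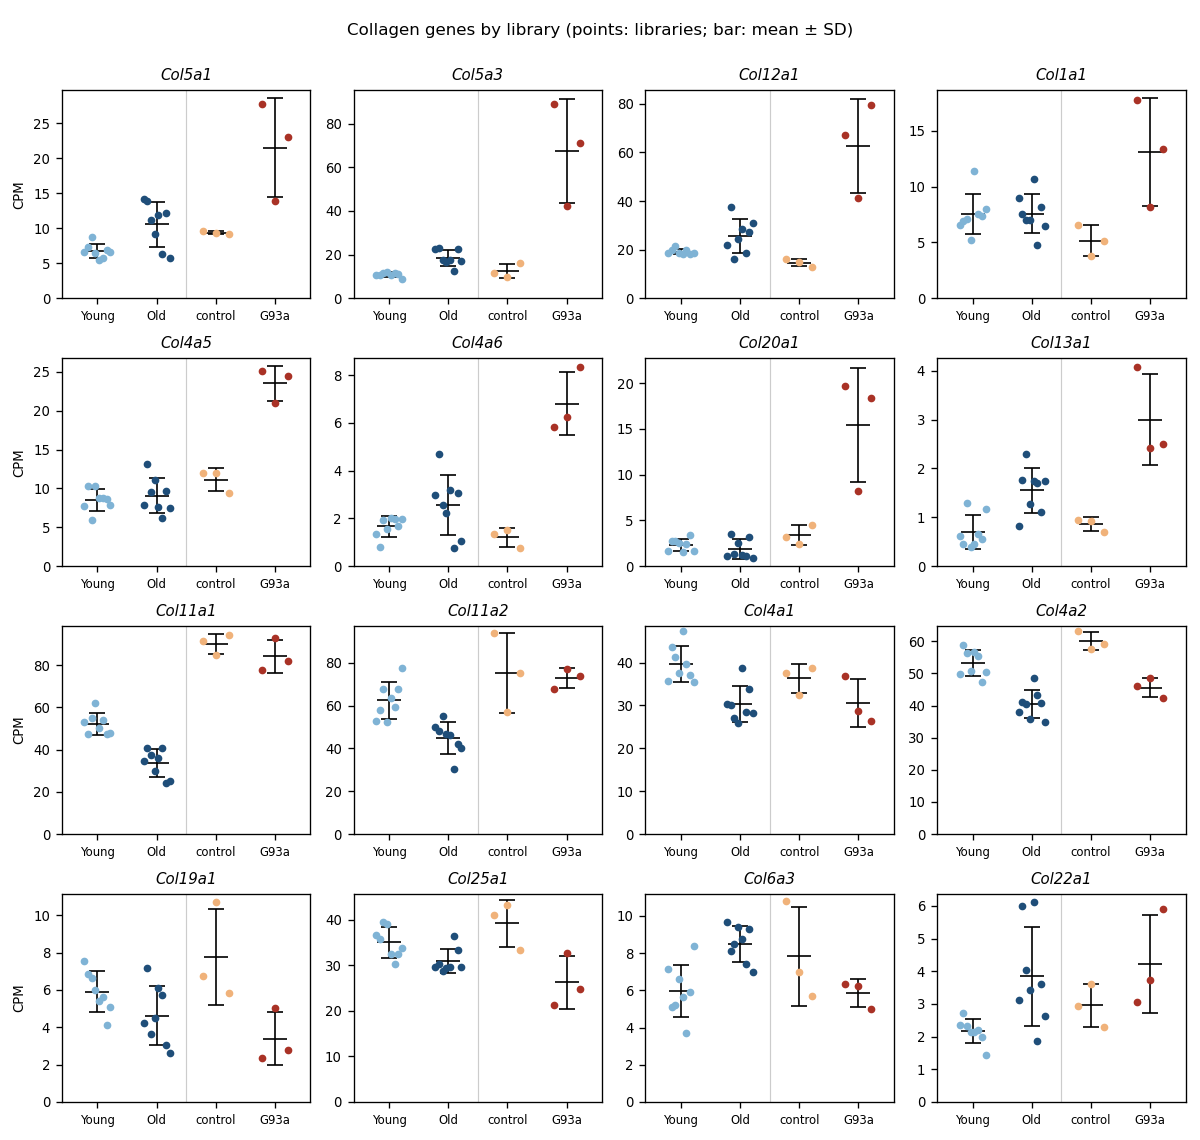
CPM of 16 collagen genes in each library (points) with the group mean ± SD (bars). Young and Old, and control (WT_G93a_Control) and G93a, were scaled within their own experiment, so panels are read within each side of the grey line. Col5a3 is higher in every Old than in every Young library, and in every G93a (42.1 to 89.1) than in every control library (9.60 to 16.0).

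The type V chain Col5a3 again had the largest rise of the fibrillar class. Col5a3 was at 11.6, 9.60 and 16.0 CPM in the 3 controls and 89.1, 42.1 and 70.9 in the 3 G93a mice, a 5.43-fold rise (log2 fold change 2.44, SE 0.28, adjusted p = 0.000563, edgeR). Col5a1 was at 9.58, 9.26 and 9.22 CPM in controls and 27.7, 13.9 and 23.0 in G93a (log2 fold change 1.21, SE 0.23, adjusted p = 0.00563, edgeR). For both genes, G93a library 2 was the lowest of the 3 and still above all controls. Relative to each other, Col5a3 was at 1.43 ± 0.52 times the FPKM of Col5a1 in controls and 3.82 ± 0.62 times in G93a (SD, n = 3), against 2.15 ± 0.36 in Young and 2.15 ± 0.89 in Old.

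Type I collagen, the main collagen of scar and connective tissue, rose in one of its chains. Col1a1 was at 6.55, 3.79 and 5.15 CPM in controls and 17.8, 8.16 and 13.3 in G93a (log2 fold change 1.35, SE 0.30, adjusted p = 0.0103, edgeR). Its partner Col1a2 was at 32.3, 31.1 and 35.8 CPM in controls and 68.8, 32.1 and 50.0 in G93a, where library 2 lay within the controls, and did not pass the test (log2 fold change 0.61, SE 0.23, adjusted p = 0.0696, edgeR); without library 2 it did (0.85, adjusted p = 0.0006). Type I molecules usually hold more alpha1 than alpha2 chains, yet Col1a2 stood at 5.22 ± 1.4 times the FPKM of Col1a1 in Young, 5.08 ± 1.5 in Old, 8.98 ± 2.7 in controls and 4.70 ± 0.096 in G93a. Of the remaining fibrillar genes, Col27a1, a chain of cartilage matrix, rose (log2 fold change 0.90, SE 0.13, adjusted p = 0.00197, edgeR). Col2a1, Col3a1, Col5a2, Col24a1 and the type XI pair did not pass the test. Col11a1 was at 91.3, 85.0 and 94.3 CPM in controls and 77.6, 92.9 and 81.8 in G93a, and Col11a2 at 93.9, 56.8 and 74.99 against 67.8, 77.1 and 73.9, so both pairs of groups overlapped.

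**Figure D3:**
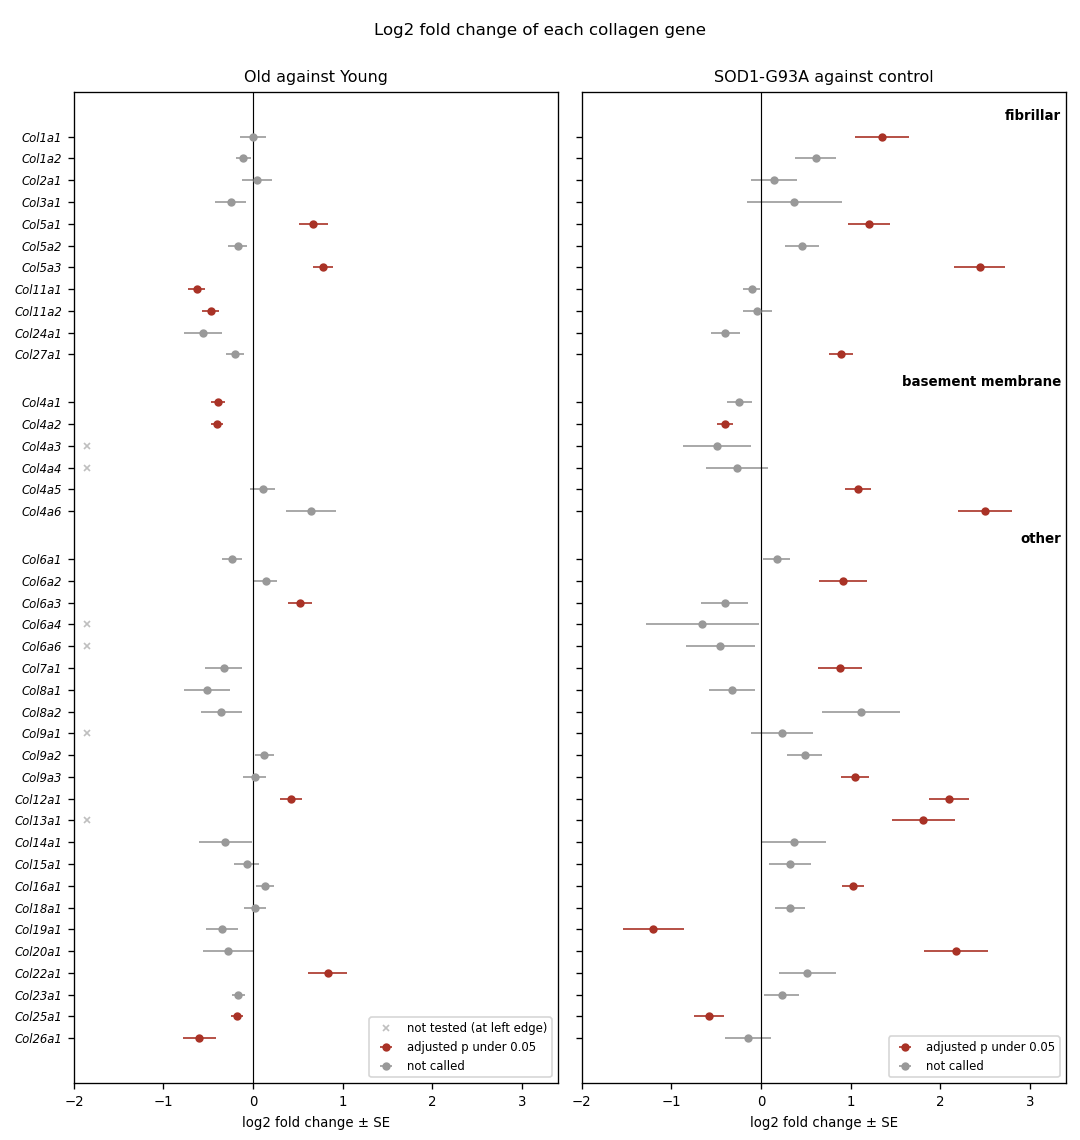
Log2 fold change ± SE (edgeR) of each of the 40 collagen genes, Old against Young on the left and SOD1-G93A against control on the right, grouped by class; red points passed an adjusted p of 0.05. The 4 largest rises on the right are Col4a6, Col5a3, Col20a1 and Col12a1, at log2 fold changes of 2.501 to 2.10.

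Of the basement membrane genes, Col4a5 and Col4a6 rose and Col4a2 fell. Col4a6 was at 1.33, 1.52 and 0.768 CPM in controls and 5.85, 6.24 and 8.33 in G93a, a 5.66-fold rise and the largest log2 fold change of the 40 (2.501, SE 0.30, adjusted p = 0.00071, edgeR). The control values were only 14, 18 and 10 counts, which limits the precision of the fold of Col4a6. Its assembly partner Col4a5 was at 11.96, 12.04 and 9.37 CPM in controls and 25.1, 20.9 and 24.5 in G93a (log2 fold change 1.08, SE 0.14, adjusted p = 0.00112, edgeR). Of the ubiquitous pair, Col4a2 fell from 63.3, 57.8 and 59.1 CPM to 46.0, 48.4 and 42.3 (log2 fold change -0.40, SE 0.09, adjusted p = 0.0104, edgeR), a call that was lost without G93a library 3 (adjusted p = 0.0548). Col4a1 was at 37.6, 32.5 and 38.8 CPM in controls and 36.9, 28.6 and 26.3 in G93a, with overlap, and did not pass the test (-0.24, SE 0.14, adjusted p = 0.209, edgeR); without G93a library 1 it did (-0.40, adjusted p = 0.0442). The kidney and lung chains Col4a3 and Col4a4 were near the detection limit, at or below 2.37 CPM in these 6 libraries.

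FACIT genes held the most called members of the other class. Col12a1 was at 16.0, 15.1 and 12.9 CPM in controls and 67.0, 41.4 and 79.5 in G93a (log2 fold change 2.10, SE 0.22, adjusted p = 0.000384, edgeR). Col20a1, another FACIT chain, was at 3.23, 2.44 and 4.53 CPM in controls and 19.7, 8.26 and 18.4 in G93a (2.18, SE 0.35, adjusted p = 0.0029, edgeR). Col16a1 was at 68.4, 61.6 and 53.4 CPM in controls and 130, 108 and 135 in G93a (1.03, SE 0.12, adjusted p = 0.000614, edgeR). Col16a1 had the highest FPKM of the collagens in both groups, 18.3 in controls and 40.3 ± 3.2 in G93a, where the range of the next, Col9a3 at 19.9 ± 2.0, did not overlap it. Col9a3, a type IX chain of cartilage fibrils, was at 20.6, 13.9 and 17.3 CPM in controls and 35.2, 32.1 and 39.7 in G93a (1.05, SE 0.15, adjusted p = 0.00171, edgeR). Its exons overlap those of Tcfl5 on the opposite strand, and whether counting used strand is not stated. Col19a1, a FACIT chain made by some neurons, fell from 6.74, 10.7 and 5.84 CPM to 2.37, 5.04 and 2.78 (-1.20, SE 0.34, adjusted p = 0.0248, edgeR), a call that did not hold in 4 of the 6 fits that left out 1 library, namely control 1, control 2, G93a 1 or G93a 3 (adjusted p up to 0.105).

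Of the transmembrane chains, Col13a1 rose from 0.949, 0.926 and 0.692 CPM to 4.07, 2.42 and 2.51 (log2 fold change 1.81, SE 0.35, adjusted p = 0.00583, edgeR). Its control values were only 10, 11 and 9 counts. Col25a1 fell from 41.0, 43.3 and 33.3 CPM to 21.4, 32.6 and 24.8 (-0.58, SE 0.17, adjusted p = 0.0256, edgeR), and Col23a1 was at 37.8, 38.6 and 48.1 against 49.9, 34.6 and 61.3, with overlap and no call. Col6a2 and the anchoring fibril gene Col7a1 rose by log2 fold changes of 0.91 (SE 0.27, adjusted p = 0.0295) and 0.88 (SE 0.24, adjusted p = 0.022, edgeR). The calls of Col25a1, Col6a2 and Col7a1 were each lost in 4 of the 6 fits that left out 1 library (adjusted p up to 0.102, 0.119 and 0.0955). For Col25a1 these were control 1, control 2, G93a 1 and G93a 3, and for Col6a2 and Col7a1 they were the 3 controls and G93a 3. Both multiplexins and both type VIII chains did not pass the test.

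By class, 4 of 11 fibrillar, 2 of 6 basement membrane and 7 of 23 other genes rose, and 0, 1 and 2 fell, where 18.4% and 15.5% of all genes did. With so few genes in each class, none of these class counts is set apart from that background. The median log2 fold change was 0.46 for fibrillar, -0.26 for basement membrane and 0.33 for other genes, against 0.0031 over all genes. The basement membrane median rested on few genes and became 0.040 when types XV and XVIII, which lie in basement membrane zones, were counted with type IV. Leaving out G93a library 1 gave 14 genes higher and 2 lower, in a fit that called 2035 of all 14491 genes higher and 1368 lower. It ended the calls of Col19a1 (adjusted p = 0.0679) and Col25a1 (0.0672) and added Col4a1 and Col9a2 (log2 fold change 0.67, adjusted p = 0.026, edgeR). Leaving out the low library 2 gave 18 higher and 4 lower, in a fit that called more of all genes as well, 3476 of 14584 higher and 3172 lower. It added Col1a2, Col5a2, Col8a2, Col18a1 and Col23a1 as higher (log2 fold changes 0.85, 0.55, 1.32, 0.47 and 0.42) and Col24a1 as lower (-0.49).

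The 2 comparisons had separate controls and could be set side by side. Of 34 genes tested in both, 21 had log2 fold changes of the same sign. Col5a1, Col5a3 and Col12a1 were called higher in both and Col4a2 and Col25a1 lower in both, and no gene was called in opposite directions. The calls of Col25a1, and that of Col4a2 in SOD1-G93A, did not hold in every fit that left out 1 library. Across these 34 genes, Pearson's r between the log2 fold changes was 0.57 and Spearman's rho 0.56, given as a description because genes are not independent replicates. For 24 of the 34 the fold change was larger in size in SOD1-G93A than with age: 8 of 11 fibrillar, 2 of 4 basement membrane and 14 of 19 other genes. The shares of all genes with the same sign, or with a larger change in SOD1-G93A, were not computed. Nor were the shares of all genes called in both comparisons, in the same or in opposite directions. Among all genes tested, 8.5% were called past a log2 fold change of 1 upward and 1.2% downward in SOD1-G93A. With age these shares were 2.18% and 0.044%, so the counts are not read as particular to collagens.

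**Figure D4:**
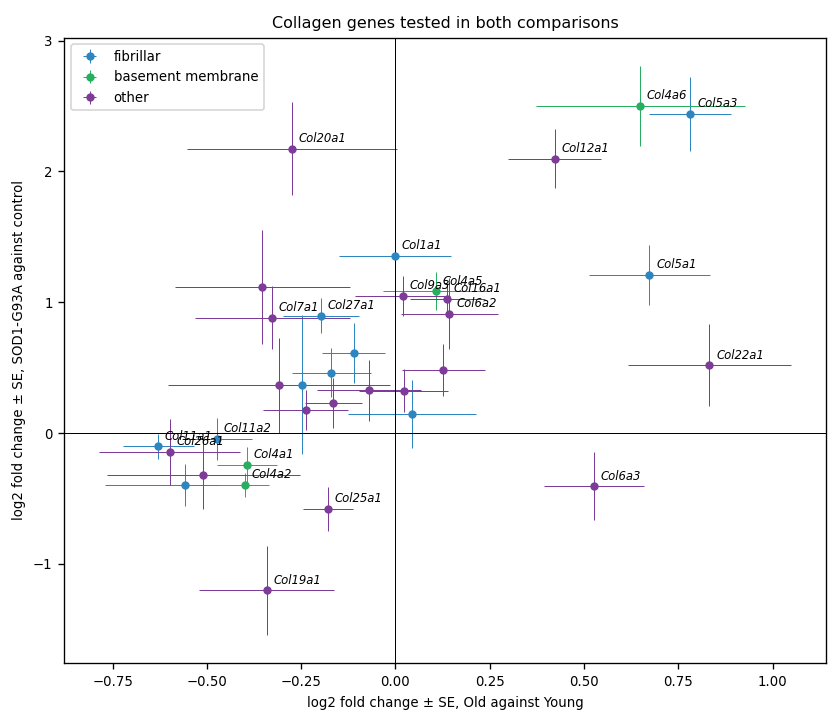
Log2 fold change ± SE of the 34 collagen genes tested in both comparisons, Old against Young on the x axis and SOD1-G93A against control on the y axis, coloured by class; genes called in at least 1 comparison are named. Col5a3, Col5a1 and Col12a1 lie at the upper right, Col20a1 at the upper left, and Col6a3 is the named gene at the lower right.

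Whether the 2 changes differed was tested with 1 fit of all 22 libraries. It was called for 17 of 40 genes. In 15 the change was more positive in SOD1-G93A, where 11.6% of all genes tested were, and in 2, Col6a3 and Col25a1, it was more negative, where 14.2% were. Col20a1 differed most, by 2.42 on the log2 scale (SE 0.46, adjusted p = 0.000434, edgeR): with age it ran from 1.58 through 2.47 to 3.39 CPM in Young and from 0.874 through 1.26 to 3.52 in Old, with overlap. Col5a3 and Col12a1, higher in both, differed by 1.63 (SE 0.26, adjusted p = 6.35e-05) and 1.65 (SE 0.25, adjusted p = 4.93e-05, edgeR). The change of Col4a2 did not differ detectably (-0.02, SE 0.12, adjusted p = 0.903, edgeR), nor did that of Col5a1 (0.51, SE 0.30, adjusted p = 0.218).

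In 7 genes with a called difference the fitted fold changes had opposite signs, and in none of them had both passed their own test. Col6a3 was called higher with age and was at 10.8, 6.99 and 5.69 CPM in controls and 6.36, 6.24 and 5.01 in G93a (difference -0.96, SE 0.27, adjusted p = 0.0095, edgeR). By FPKM, Col6a3 stood at 1.10 ± 0.35 in controls and 1.32 ± 0.28 in G93a (SD, n = 3). The sign of its change in SOD1-G93A thus depended on the measure. Col27a1 had log2 fold changes of -0.20 with age and 0.90 in SOD1-G93A (difference 1.07, SE 0.17, adjusted p = 6.64e-05, edgeR), with 19.8, 17.7 and 19.1 CPM in controls and 36.9, 28.8 and 39.6 in G93a. Col7a1 was at 5.31, 5.14 and 4.15 against 9.15, 6.34 and 11.3 CPM (difference 1.18, SE 0.33, adjusted p = 0.0101, edgeR). For the ages, Col27a1 ran from 9.55 through 12.2 to 13.7 CPM in Young and from 8.39 through 10.4 to 12.8 in Old, and Col7a1 from 2.72 through 3.18 to 4.24 and from 1.46 through 2.24 to 3.99. For Col6a3, Col27a1, Col7a1 and Col20a1 one of the fold changes had passed its own test, and for Col1a2, Col5a2 and Col8a2 neither had. Col8a2 was at 1.33, 1.52 and 0.999 against 4.58, 1.91 and 1.79 CPM, with 1 G93a mouse far above the others (difference 1.45, SE 0.47, adjusted p = 0.0239, edgeR). Col5a2 was at 22.3, 18.7 and 14.1 against 30.5, 21.96 and 23.0 CPM (difference 0.61, SE 0.19, adjusted p = 0.0229, edgeR). For the ages, Col8a2 ran from 1.57 through 2.61 to 3.53 CPM in Young and from 0.925 through 2.06 to 2.98 in Old, and Col5a2 from 8.62 through 9.18 to 11.5 and from 7.10 through 7.995 to 11.5. With Col1a2 and Col20a1, given above, these make up the 7; the near-zero aging value of Col1a1 (-0.0014) was not counted. Some called differences did not hold with 1 library left out. Without G93a library 1 those of Col1a2 (adjusted p up to 0.14), Col5a2 (0.128) and Col8a2 (0.23) were lost, the last pair also without control 3. That of Col6a3 was lost without control 1 (0.0724), that of Col7a1 without G93a library 3 (0.0529), that of Col11a1 without control 2 or G93a library 2 (0.0678), and those of Col6a2 and Col25a1 in 4 of 6 fits each.

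All 6 type IV genes sit in head-to-head pairs. Col4a1 (chr8:11198423-11312826, minus strand) and Col4a2 (chr8:11312805-11449287, plus strand) overlap by 22 bases at their starts, and both fell with age. Col4a6 and Col4a5 face away from each other across 1308 bases on chromosome X, and both rose in SOD1-G93A, whereas the Col4a4 and Col4a3 pair, 71 bases apart, was not called. Across Young mice, log2 CPM of Col4a1 and Col4a2 had Pearson's r = 0.84 (exact permutation p = 0.0107, adjusted over 8 relations 0.0853, n = 8) and Spearman's rho = 0.88 (exact p = 0.00724, adjusted 0.0579), with r = 0.82 after the 2 mice farthest from the median of Col4a1 were left out. Across Old mice r was 0.74 (exact permutation p = 0.0384, adjusted 0.154, n = 8) and rho 0.62 (exact p = 0.115, adjusted 0.23), and r fell to 0.33 without the 2 farthest mice, so it rested on them. None of the 8 relations passed after adjustment, including Col1a1 with Col1a2 (r = -0.08 in Young and 0.39 in Old).

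Genes that act on collagen were described from lists of 76 genes. With age 17 of 65 tested rose and 7 fell, and in SOD1-G93A 35 of 71 rose and 3 fell; the median log2 fold changes were 0.033 and 0.55. Of all genes tested, 13.5% rose and 12.9% fell with age and 18.4% and 15.5% did in SOD1-G93A, and the counts of each list below are to be read against these shares. Of 20 genes of chain modification and folding, 5 rose and 2 fell with age, close to the background for so few genes, and 12 rose in SOD1-G93A. The prolyl 4-hydroxylase subunit P4ha3 (log2 fold change 0.53, adjusted p = 0.00025 with age; 1.96, adjusted p = 0.000264 in SOD1-G93A, edgeR) and the collagen chaperone Fkbp10 (0.97 and 1.59) rose in both, and Colgalt1, which adds galactose to collagen, did so too (0.32 and 0.90). P3h2, a prolyl 3-hydroxylase, also rose in both (0.79 and 1.72). Among propeptide removal and cross-linking genes, 1 of 10 rose with age, the lysyl oxidase relative Loxl2 (0.74). In SOD1-G93A 4 of 12 rose, Loxl2 (2.35), Loxl3 (1.44), the procollagen C-proteinase Bmp1 (1.27) and Lox (4.37), which was at 0.231 to 0.758 CPM in controls and 2.92 to 21.6 in G93a. For Lox the 21.6 CPM was in G93a library 1, against 2.92 and 7.61 in libraries 2 and 3, and the lowest control value corresponded to 3 counts. The 1 gene of this list that fell in SOD1-G93A, named after its value was seen, was Adamts2 (-0.81), which trims the N-terminal propeptide.

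**Figure D5:**
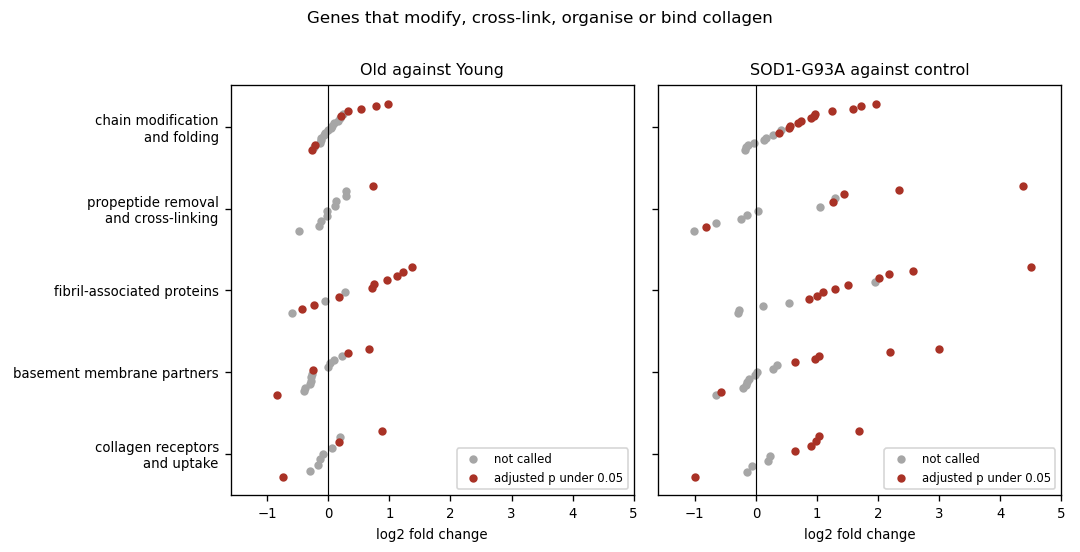
Log2 fold changes of genes that modify, cross-link, organise, anchor or bind collagen, 1 point a gene, in Old against Young (left) and SOD1-G93A against control (right); red points passed an adjusted p of 0.05. In SOD1-G93A 12 of 20 modification genes and 9 of 14 fibril-associated genes are red and to the right of 0.

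Of the fibril-associated proteins, 7 of 12 rose and 2 fell with age (13.5% and 12.9% of all genes), and 9 of 14 rose and 0 fell in SOD1-G93A (18.4% and 15.5%). Fibromodulin (Fmod), a proteoglycan that binds type I fibrils, had log2 fold changes of 1.36 with age (adjusted p = 4.6e-10) and 4.50 in SOD1-G93A (adjusted p = 0.00015, edgeR), from 7.49 to 8.30 CPM in controls and 88.1 to 228 in G93a. Ecm1 (1.13 and 2.57), the fibril regulator Thbs2 (0.96 and 2.01) and the proteoglycan Prelp (0.75 and 2.19) were also called higher in both. Biglycan (Bgn), a related proteoglycan named after its values were seen, was called in opposite directions, lower with age (-0.43, adjusted p = 0.00892) and higher in SOD1-G93A (1.001, adjusted p = 0.00292, edgeR). Of basement membrane partners, 2 of 14 rose and 2 fell with age, which is at the background, and 5 of 15 rose and 1 fell in SOD1-G93A. Nid1, which links type IV collagen to laminin, fell in both (-0.85 and -0.58), while its relative Nid2 rose in both (0.67 and 2.20) and the laminin gene Lamb2 did so too (0.33 and 1.04). Agrn, a proteoglycan of basement membranes and synapses, fell with age (-0.24). Collagen receptors and uptake genes gave 2 rises and 1 fall of 9 with age and 5 and 1 of 10 in SOD1-G93A; the inhibitory receptor Lair1 (0.87 and 1.69) and the receptor kinase Ddr1 (0.17 and 0.98) rose in both. The integrin gene Itga10 fell with age (-0.74), and Itgb1, the beta chain of the collagen-binding integrins, rose in SOD1-G93A (0.64).

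Markers of the cell types that make collagen were set beside these results, and their counts too are to be read against 13.5% of all genes higher and 12.9% lower with age and 18.4% and 15.5% in SOD1-G93A. Of 12 markers of meningeal and perivascular fibroblasts, 5 were tested with age and 6 in SOD1-G93A, and 0 were called in either direction. Their summed level was 26.0 to 34.5 CPM in Young, 31.1 to 41.3 in Old, 21.7 to 37.1 in controls and 26.9 to 46.9 in G93a, and 4, 3, 3 and 1 of the 12 never passed 3 counts in those groups. The leading ones, Igf2 and Dcn, had log2 fold changes of -0.30 and 0.54 in SOD1-G93A with no call. Endothelial markers, 11 in all, gave 0 rises and 3 falls with age (Flt1, Kdr and Tek) and 0 rises and 2 falls in SOD1-G93A (Kdr and Tie1), and their sum was 351 to 378 CPM in Young, 311 to 367 in Old, 365 to 385 in controls and 327 to 361 in G93a. Mural cell markers gave 1 rise and 1 fall with age, and 5 rises and 1 fall in SOD1-G93A among 11. Their median log2 fold change in SOD1-G93A was -0.20. Their sum was 328 to 356 CPM in Young, 310 to 369 in Old, 260 to 337 in controls and 271 to 318 in G93a, with overlap in both comparisons.

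Microglial markers rose in 7 of 8 with age and 6 of 8 in SOD1-G93A, with sums of 314 to 350 CPM in Young, 495 to 839 in Old, 326 to 392 in controls and 1245 to 2261 in G93a, and astrocyte markers rose in 3 of 6 (1 fell) and 5 of 6. In G93a, library 2 had the lowest sum of both lists (1245 and 10822 CPM). Motor neuron markers gave 0 rises and 1 fall of 7 with age and 0 rises and 5 falls in SOD1-G93A, and the general neuron list gave 1 rise and 2 falls of 6 with age and 0 and 5 in SOD1-G93A. Oligodendrocyte precursor markers gave 0 rises and 2 falls of 4 with age and 3 rises in SOD1-G93A, oligodendrocyte markers 1 rise and 2 falls of 5 with age and 0 in SOD1-G93A, and ependymal markers 1 rise and then 4 rises of 4 tested. Schwann cell markers gave 0 rises and 1 fall of 5 tested with age and 3 rises of 8 tested in SOD1-G93A, with sums of 87.1 to 104 CPM in Young, 77.4 to 157 in Old, 95.8 to 120.1 in controls and 130.1 to 337 in G93a. Every G93a library thus lay above every control, also without library 1. Cartilage and bone markers gave 1 rise and 1 fall of 3 tested with age and 1 fall of 3 in SOD1-G93A, the fall being Acan both times, which also marks perineuronal nets. Their sum was 52.6 to 63.6 CPM in Young, 46.6 to 62.9 in Old, 47.5 to 55.2 in controls and 22.8 to 30.01 in G93a, lower in every G93a library than in every control. Skeletal muscle (0 and 1 of 9 tested, sums at most 7.94 CPM) and red blood cell markers (5 of 5 tested) had 0 calls. The part of any of these cell types in the collagen results was not tested.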

How the data were processed

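Spinal cord RNA-seq libraries of 22 mice were analysed. The authors aligned reads with STAR to mm10 with Ensembl 88 and quantified genes with RSEM; their processing notes also name SAMtools 1.3. One deposited table holds the expected counts per gene, already whole numbers, which were tested as deposited. In the other, the authors gave log2 of FPKM plus 1, normalised to gene length and library size, from which FPKM was computed back. Symbols and positions came from GENCODE M21 (GRCm38), which matched 21842 of 21995 rows. Whether counting used strand is not given in the sources used here.

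Comparisons were fitted separately in edgeR 4.0.16 (R 4.3.3) with TMM factors, filterByExpr (minimum count 10, total 15) and the quasi-likelihood test, with p-values adjusted by Benjamini-Hochberg over every gene in the fit and a threshold of 0.05. The difference between comparisons came from 1 fit of all libraries. CPM used TMM-scaled depths; 3 counts corresponded to 0.231 to 0.582 CPM. DESeq2 1.42.0, other factors, filters, a length and GC correction and leaving out each library were alternatives. On simulated data with log2 fold changes of 1.5, edgeR recovered 100% of 200 changed genes in aging and 95% in SOD1-G93A, with 2.91% and 8.65% of calls false. The SOD1-G93A value is above the rate of 0.05 that the threshold sets. The changed genes were 200 of 13575 and 200 of 14262, as many up as down. A far larger share was called in the data, so the simulation does not vouch for those calls. Changes as small as those called with age, and changes in low-count genes, were not simulated. The p-values treat libraries as separate mice. Sex of each library is not in the labels and was not a covariate. No libraries of a group were identical.

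Values per library are given for members called with a log2 fold change beyond 1, for the 3 of each class with the highest FPKM and for members with a called difference of opposite sign, and up to 3 pathway genes per list by adjusted p. Members and lists were chosen with earlier results of these data known. Results that rest on items withheld for evaluation are not reported here.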

Additional observations from a re-analysis of the deposited data

Results flagged for a closer look

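In 80 groups of 8 libraries tested for a sample far from the others, 4 were found, where chance gives about 5%. All were in Young: the highest library of Col1a1 (11.4 CPM), of Col12a1 (21.5 CPM) and of Col26a1 (6.21 CPM), and the lowest of Col9a2 (5.37 CPM).

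The change in SOD1-G93A differed from that with age, by edgeR's test of the difference, in 17 collagens. The difference of log2 fold changes (SOD1-G93A minus aging) was 1.33 for Col1a1, 0.69 for Col1a2, 0.61 for Col5a2, 1.63 for Col5a3, 0.50 for Col11a1 and 1.07 for Col27a1 among fibrillar genes, and 0.95 for Col4a5 and 1.82 for Col4a6 among basement membrane genes. In the other classes it was 0.74 for Col6a2, -0.96 for Col6a3, 1.18 for Col7a1, 1.45 for Col8a2, 1.01 for Col9a3, 1.65 for Col12a1, 0.86 for Col16a1, 2.42 for Col20a1 and -0.43 for Col25a1. The comparisons also differ in library kit, age and sex of the mice, and their part in these differences cannot be told apart.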

How the results depend on the processing

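No collagen changed direction among calls under any alternative run. Requiring a log2 fold change beyond 1 as well left 0 higher and 0 lower with age and 1 lower in SOD1-G93A. The 0 higher with age depended on the low-count filter, which left Col13a1 untested. Without the filter Col13a1 passed both thresholds (1.11, adjusted p = 0.00959, edgeR). It also did with DESeq2 (1.13, adjusted p = 0.00691) and in 1 fit of all 22 libraries (1.12, adjusted p = 0.00494, edgeR). With 1 library left out, collagens called with age were 5 to 6 higher and 5 to 7 lower, those in SOD1-G93A 11 to 18 higher and 0 to 4 lower, and those with a called difference 11 to 16 more positive and 0 to 3 more negative. The basement membrane median in SOD1-G93A was 0.040 with types XV and XVIII counted in it, by construction of the class. The length and GC correction shifted the median of all genes by -0.13 in SOD1-G93A and split its calls 2088 higher to 3843 lower, against 2641 to 2236 without it. No paired analysis was possible because the tables' columns carry no replicate numbers that match the sample titles. In the aging comparison 6 collagens did not pass the filter on low counts. Its libraries were shallower than those of the SOD1-G93A comparison and its groups larger, and the part of each was not tested. How small a change could be found was not tested.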

Other observations

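Col28a1, which did not reach the count minimum, was at 3.39 CPM in G93a library 1, the library with the highest summed level of Schwann cell markers (337 CPM). No group comparison was made from it.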
